A study of Mus musculus with 15 samples.

Results

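The induced pluripotent stem (iPS) cell line IP20D-3 was set against the iPS cell line IP14D-101, with 3 Affymetrix arrays for each line, 6 of the 15 arrays of a mouse study of embryonic stem (ES) and iPS cells. The arrays were chosen by their titles, and every one of the 45037 non-control probe sets was compared. IP20D-3 carried the B6D2F1 background, a hybrid of C57BL/6 and DBA/2 mice, and IP14D-101 carried the background C57x129S2. The remaining 9 arrays held the iPS line IP14D-1, the ES line CL11 and mouse embryonic fibroblasts (MEF), all B6D2F1 with 3 arrays each. ES and iPS cells had grown on MEF feeder cells arrested with mitomycin C, with LIF, in medium with either FBS or knockout serum replacement. Which of these media a given line received is not stated. Total RNA was extracted with Trizol from pelleted cells. IP20D-3 and IP14D-101 are single lines on different backgrounds, so line and background cannot be told apart between them. The method of reprogramming is not given in the sources used here. The submitters call the 3 arrays of a group biological replicates without saying whether they came from separate cultures, so the p-values measure the spread between these arrays.

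iPS cells are somatic cells that have been returned to a state in which they can form every tissue of the embryo. In medium with LIF, mouse ES and iPS cultures hold a varying fraction of cells that switch on genes of the primitive endoderm, an extraembryonic layer that makes basement membrane. The amino acid response is run by the transcription factor Atf4, whose protein accumulates when amino acids are short or when unfolded protein builds up in the endoplasmic reticulum (ER), and it turns on amino acid transporters, tRNA synthetases and the factors Ddit3 and Trib3. Imprinted genes are expressed from the allele of only the mother or only the father, and the Dlk1-Dio3 cluster among them is known to be silenced in some mouse iPS lines.

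Levels are given as log2(signal + 16) of the scaled array signal, and differences are IP20D-3 minus IP14D-101 on that scale, so that a difference of 1 is a 2-fold change. Differences of genes carry their standard error. A level of 11.04 served as background, the 95th percentile of 39 olfactory receptor genes, which these cells are not known to use. Above it lay between 63.4% and 64.4% of genes on the IP20D-3 arrays and between 62.7% and 63.4% on the IP14D-101 arrays. The trimmed mean of the deposited signals ran over a 1.83-fold range among the 15 arrays. The ratio of the 3′ to the 5′ control probe sets, a measure of RNA integrity, was 1.28 ± 0.026 in IP20D-3 and 1.22 ± 0.064 in IP14D-101 for actin, and 0.795 ± 0.0056 in IP20D-3 and 0.795 ± 0.022 in IP14D-101 for GAPDH (SD, n = 3 each). Neither ratio differed beyond the spread of the arrays (exact two-sided permutation test, p = 0.3 for actin and p = 1 for GAPDH, with 0.1 the smallest p that 3 against 3 arrays allow).

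Both lines carried the markers of pluripotent cells. All 8 markers checked, among them Pou5f1, Sox2, Nanog, Esrrb and Utf1, lay above background in both lines, and 7 of the 8 lay below it in MEF. Their summed signal ran between 3.15e+06 and 3.46e+06 on the IP20D-3 arrays, and between 3.63e+06 and 3.93e+06 on the IP14D-101 arrays. Markers of fibroblasts, which the feeder cells also express, summed to between 324820 and 397626 in IP20D-3 and between 293361 and 324661 in IP14D-101, against at least 1.09e+07 in MEF. Of these 32 markers, 21 in IP20D-3 and 20 in IP14D-101 lay below background. Markers of macrophages, blood and endothelium summed to between 77490.5 and 111561 in IP20D-3 and between 54928.1 and 65724.2 in IP14D-101, and 13 of 18 lay below background in either line. The part of feeder or blood cells in the differences between the lines was not tested.

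At an adjusted p under 0.05 in limma, 8188 of the 45037 probe sets (18.2%) differed between the lines, 4735 higher in IP20D-3 (10.5%) and 3453 lower (7.67%). Taken as 18193 genes, each read from its brightest probe set, 4001 (22%) differed. Of these, 1865 genes were higher in IP20D-3 (10.3%) and 2136 were lower (11.7%), and the median difference over all genes was 0.01. The arrays of the lines did not overlap in 6518 genes (35.8%), with IP20D-3 on the higher side in 17.4% of genes and on the lower side in 18.5%. The difference was at least 2-fold in 581 of the genes that rose (3.19%) and in 313 of those that fell (1.72%). Both lines lay above background in 3644 of the called genes, while 135 were higher with IP14D-101 below background, 78 were lower with IP20D-3 below it and 144 had both lines below it. The balance of directions depended on the scaling: 46.6% of called genes were higher in IP20D-3 with arrays scaled to one trimmed mean, 41.1% after quantile normalization, 35.9% with no scaling and 19% with arrays scaled to one median, which moved the median of all genes to -0.23. Small differences within about that shift therefore have a direction only relative to the scaling, and list counts are given below under the median scaling too where they moved by over 1.5 times.

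The root mean square log2 difference between IP20D-3 and IP14D-101 over the 18193 genes, with replicate spread taken off, was 0.52. Across these genes the correlation between an array of each line lay between 0.922 and 0.939. Within IP20D-3 the correlations lay between 0.944 and 0.946, and within IP14D-101 between 0.941 and 0.949. By the same measure IP20D-3 lay 0.38 away from IP14D-1 and 0.52 from CL11. IP14D-101 lay 0.61 away from IP14D-1 and 0.37 from CL11.

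Genes of the amino acid response and ER stress, counted as one list, formed one of the groups that were higher in IP20D-3. Of 50 members measured, 26 rose, 6 fell and 18 did not pass, with a median difference of 0.37, beside 10.3% of all genes that rose and 11.7% that fell. The genes that fell were Xbp1 and 5 genes of ER chaperones and ER degradation. Under the median scaling 15 rose and 9 fell, with a median of 0.12. The counts without any one of the 6 arrays ran between 24 and 30 for genes that rose and between 5 and 7 for genes that fell. Since cells of the lines were measured in bulk, fewer cells of a kind and less RNA per cell cannot be told apart here or in any later group.

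Promoters are shown for 4 of the genes that rose the most, chosen because each holds the C/EBP-ATF response element, the motif through which Atf4 and its partners bind. Ddit3, which rose the most on the list (3.40), has no match in its window and is not shown. The motif searched was TGATGNAA on either strand, and matches stand in capitals. The windows are 300 bases long and reach 50 bases past the start of transcription in RefSeq on GRCm38.p6. They are Chac1 (chr2:119350992-119351291, plus strand), Nupr1 (chr7:126625421-126625720, minus strand), Vldlr (chr19:27216770-27217069, plus strand) and Trib3 (chr2:152344011-152344310, minus strand).
Chac1: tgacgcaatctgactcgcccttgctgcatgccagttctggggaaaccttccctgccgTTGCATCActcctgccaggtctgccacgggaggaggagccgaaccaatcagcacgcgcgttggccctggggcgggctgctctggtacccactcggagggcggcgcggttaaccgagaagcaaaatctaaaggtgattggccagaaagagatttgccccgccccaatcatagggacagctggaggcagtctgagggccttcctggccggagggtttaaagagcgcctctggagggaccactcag
Nupr1: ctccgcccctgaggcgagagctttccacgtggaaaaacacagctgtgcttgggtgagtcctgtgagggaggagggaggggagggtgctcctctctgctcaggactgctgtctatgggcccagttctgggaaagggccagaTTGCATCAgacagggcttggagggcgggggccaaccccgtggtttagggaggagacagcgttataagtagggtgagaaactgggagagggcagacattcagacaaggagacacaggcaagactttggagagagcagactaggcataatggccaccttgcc
Vldlr: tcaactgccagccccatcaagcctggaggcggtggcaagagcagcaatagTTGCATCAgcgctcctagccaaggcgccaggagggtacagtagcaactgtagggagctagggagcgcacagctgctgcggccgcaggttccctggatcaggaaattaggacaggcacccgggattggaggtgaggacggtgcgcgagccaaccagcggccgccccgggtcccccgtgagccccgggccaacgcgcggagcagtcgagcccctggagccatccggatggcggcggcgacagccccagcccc
Trib3: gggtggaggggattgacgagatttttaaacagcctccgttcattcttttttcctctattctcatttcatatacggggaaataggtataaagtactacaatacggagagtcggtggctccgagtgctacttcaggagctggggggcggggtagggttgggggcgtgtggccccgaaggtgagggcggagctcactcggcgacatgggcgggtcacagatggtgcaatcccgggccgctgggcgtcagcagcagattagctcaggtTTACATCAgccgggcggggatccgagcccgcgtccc
Counted from the start of transcription, the match began at position -193 in Chac1, -110 in Nupr1, -200 in Vldlr, for which 1 of 2 windows is shown, and 14 in Trib3. Among members with a promoter window, 13 of 42 (31.0%) held the element, against 1219 of all 27025 genes with a window (4.51%). Of the 13 with the element 9 rose and 0 fell, with a median of 1.27, and of the 29 without it 14 rose and 5 fell, with a median of 0.33. Matches of this motif overlapped one of the hypoxia element in 6 windows of all genes. A match is a run of letters and was not tested for binding. The list was chosen as genes of this response and of ER stress, with earlier results of these data known. Its share of the element is thus not independent of that choice, and no conclusion is drawn from it. The 29 genes without the element include ER chaperone genes such as Hspa5.

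Ddit3, a stress transcription factor also known as CHOP, stood at 16.20, 15.68 and 16.06 in IP20D-3, against 12.81, 11.96 and 12.98 in IP14D-101, a difference of 3.40 ± 0.24 (adjusted p = 3.18e-08). Nupr1, a small stress-induced chromatin protein, stood at 17.15, 16.23 and 16.79 in IP20D-3, against 13.97, 13.69 and 13.70 in IP14D-101, a difference of 2.93 ± 0.26 (adjusted p = 3.98e-07). Every IP20D-3 array lay above every IP14D-101 array for both genes, with a gap wider than the spread within either line. Atf3 rose by 2.48 ± 0.21, Cebpb by 1.64 ± 0.18, Cebpg by 1.13 ± 0.10 and Atf4 itself by 1.11 ± 0.10. Of the 8 transcription factors on the list these 6 rose, Atf5 differed by 0.27 without passing, and Xbp1, the factor of another arm of the unfolded protein response, fell by 0.59 ± 0.10 (adjusted p = 0.000467). With a probe set that does not cross-match other transcripts, Xbp1 differed by -0.25 and did not pass (adjusted p = 0.063).

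The feedback regulators of the response rose as well, 5 of 6. Chac1, which breaks down glutathione, stood at 16.81, 16.70 and 16.75 in IP20D-3, against 14.01, 13.89 and 14.22 in IP14D-101, a difference of 2.72 ± 0.14 (adjusted p = 6.27e-10). Trib3, a pseudokinase that restrains Atf4, stood at 16.57, 16.22 and 16.35 in IP20D-3, against 13.94, 13.32 and 14.19 in IP14D-101, a difference of 2.56 ± 0.23 (adjusted p = 4.52e-07). The IP20D-3 arrays stood close together for both genes and well clear of IP14D-101. Sesn2, which holds back mTORC1 signalling when leucine is short, rose by 0.99 ± 0.12. Vldlr, a lipoprotein receptor whose gene is induced by Atf4, stood at 14.39, 14.10 and 14.10 in IP20D-3, against 11.23, 11.79 and 10.42 in IP14D-101, a difference of 3.05 ± 0.51 (adjusted p = 0.000335).

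The downstream classes moved less. Among amino acid transporters 5 of 8 rose, led by the glycine carrier Slc6a9 (1.24 ± 0.22), the neutral amino acid carrier Slc1a4 (1.07 ± 0.19) and the large neutral amino acid carrier Slc7a5 (0.77 ± 0.11). Among enzymes of amino acid synthesis and one-carbon metabolism 3 of 8 rose, led by mitochondrial Mthfd2 (1.03 ± 0.12), while Asns, which makes asparagine, differed by 0.27 and Phgdh, which opens serine synthesis, by -0.23 without passing. Of 9 cytosolic tRNA synthetases 4 rose, the serine enzyme Sars by 0.60 and the asparagine enzyme Nars by 0.48.

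Of 10 genes of ER chaperones and ER degradation 5 fell, 2 rose and 3 did not pass. Hspa5 (BiP), the main chaperone of the ER lumen, stood at 17.20, 17.95 and 17.88 in IP20D-3, against 18.69, 18.69 and 18.72 in IP14D-101, and fell by 1.03 ± 0.16 (adjusted p = 0.000173). The first IP20D-3 array was the lowest and the arrays of the lines did not overlap. Of the 2 other Hspa5 probe sets above background, 1 fell by 1.01 ± 0.14 (adjusted p = 5.81e-05). The other averaged 14.99 in IP20D-3 and 15.00 in IP14D-101 and did not pass (adjusted p = 0.989). Manf fell by 0.87 ± 0.09, Pdia4 by 0.87 ± 0.23, Sdf2l1 by 0.83 ± 0.19 and Creld2 by 0.64 ± 0.11, all proteins of the ER lumen. Pdia4 missed the threshold without 1 array of either line, with adjusted p = 0.052 without the first IP20D-3 array and 0.063 without the first IP14D-101 array. Herpud1 (1.76 ± 0.13), which works in the degradation of ER proteins, and the co-chaperone Dnajb9 (0.33 ± 0.10) rose.

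The promoters of Hspa5 (chr2:34771840-34772139, plus strand) and Creld2 (chr15:88819396-88819695, plus strand) hold the ER stress response element, searched as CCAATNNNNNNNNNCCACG on both strands and capitalised in the RefSeq windows on GRCm38.p6. It is the element through which Xbp1 and Atf6 act on ER chaperone genes.
Hspa5: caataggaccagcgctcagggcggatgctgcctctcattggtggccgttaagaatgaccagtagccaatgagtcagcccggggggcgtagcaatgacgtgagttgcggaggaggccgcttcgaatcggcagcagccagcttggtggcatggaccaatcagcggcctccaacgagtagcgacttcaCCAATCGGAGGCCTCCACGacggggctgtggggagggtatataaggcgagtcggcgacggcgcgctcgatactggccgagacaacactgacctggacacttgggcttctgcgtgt
Creld2: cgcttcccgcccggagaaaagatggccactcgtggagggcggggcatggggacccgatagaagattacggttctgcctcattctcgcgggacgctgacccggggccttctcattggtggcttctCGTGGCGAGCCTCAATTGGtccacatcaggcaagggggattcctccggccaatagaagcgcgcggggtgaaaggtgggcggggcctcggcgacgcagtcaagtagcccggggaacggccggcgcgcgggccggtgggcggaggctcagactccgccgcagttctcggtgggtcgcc
The element stood in 4 of 42 windows of list members (9.52%), against 37 of all 27025 (0.137%). Of the 4 genes 0 rose and 2 fell, with a median of -0.40. The other 2, Hsp90b1 (-0.17) and Dnajc3 (0.22), did not pass. Of the ER genes that rose, Herpud1 holds the C/EBP-ATF element and no match of the ER stress element in its window. Dnajb9 holds neither. Whether either element bears on the direction of a gene was not tested. The list was chosen as genes of these responses, so no conclusion is drawn from its share of the ER stress element.

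**Figure D1:**
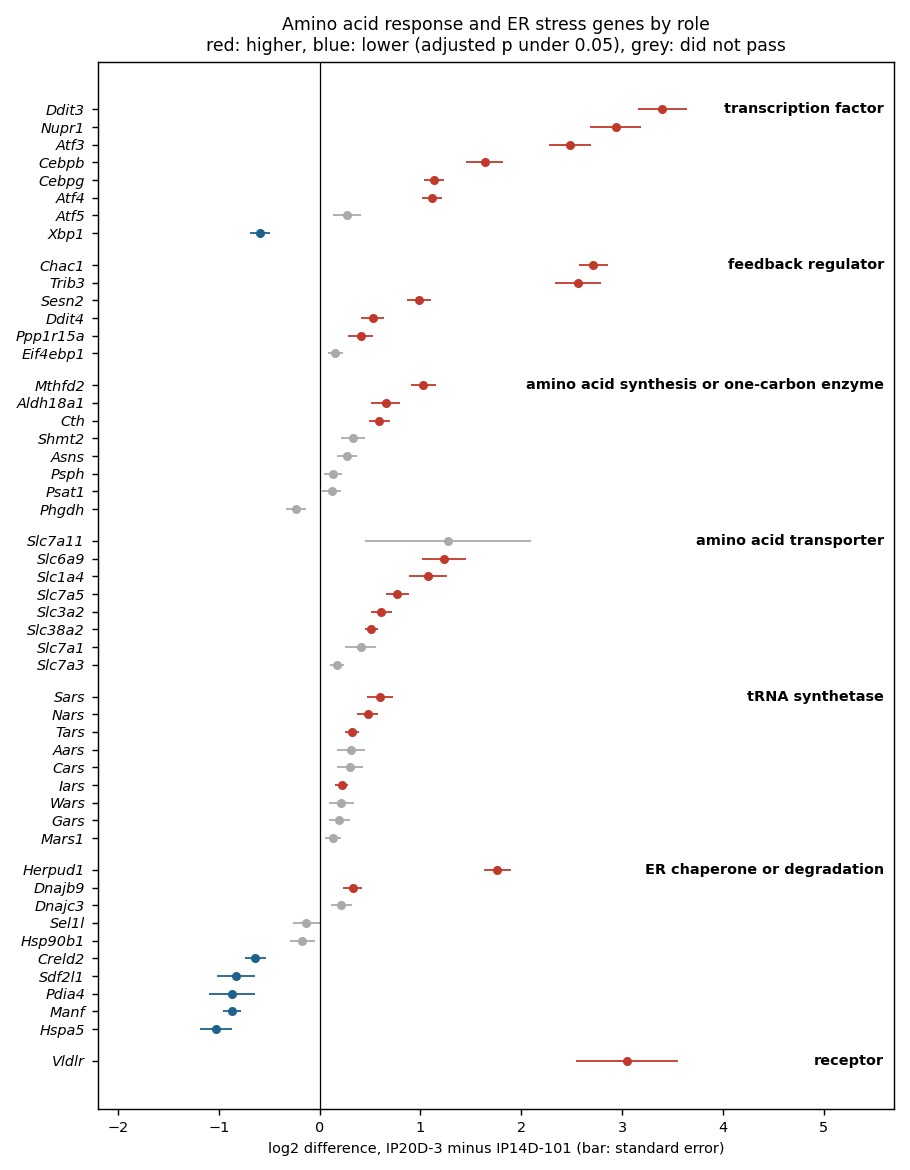
Log2 difference, IP20D-3 minus IP14D-101, of the 50 measured genes of the amino acid response and ER stress list, grouped by role; points are limma estimates over 3 arrays a line and bars their standard errors. Ddit3 (3.40) and Nupr1 (2.93) stand far to the right among transcription factors, and 5 of the 10 ER chaperone and degradation genes were called lower, down to Hspa5 (-1.03).

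Genes of the primitive and visceral endoderm were lower in IP20D-3. Of 40 measured, 22 fell, 1 rose and 17 did not pass, with a median of -1.03. Between 19 and 21 fell without any one array, and 25 under the median scaling. The summed signal of the list ran between 418842 and 427581 on the IP20D-3 arrays and between 880234 and 1.03e+06 on the IP14D-101 arrays. In IP20D-3 21 of the 40 lay below background, and in IP14D-101 11.

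Among the transcription factors 6 of 10 fell. Gata6, which starts the primitive endoderm programme, stood at 10.78, 11.33 and 10.77 in IP20D-3, around background, against 14.46, 14.38 and 14.70 in IP14D-101, at least 10.4-fold lower (adjusted p = 1.02e-08). Gata4, its partner, stood at 10.05, 11.48 and 10.71 in IP20D-3, against 13.59, 13.64 and 13.51 in IP14D-101, at least 5.24-fold lower (adjusted p = 0.000116). Arrays of the lines stood far apart for both factors. A fold written as at least takes each array below background at the background level. Sox7 fell by 2.16 ± 0.36 and Foxq1 by 2.13 ± 0.28, and Foxa2 was at least 1.22-fold lower (adjusted p = 0.027). Sox17, which follows Gata6 in the lineage, stood at 11.26, 10.86 and 9.95 in IP20D-3, against 12.60, 12.63 and 12.67 in IP14D-101, and just missed the threshold (adjusted p = 0.0502). It passed under 8 of the alternatives, with adjusted p between 0.0046 and 0.043, and another Sox17 probe set fell by 3.66 ± 0.70 (adjusted p = 0.00111).

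Receptors and adaptors of the endoderm fell in 7 of 9 cases. Dab2, an endocytic adaptor, stood at 12.37, 12.38 and 12.23 in IP20D-3, against 15.70, 15.64 and 15.83 in IP14D-101, and fell by 3.39 ± 0.10 (adjusted p = 2.3e-13). Cubn, the endocytic receptor cubilin, stood at 8.97, 7.87 and 10.15 in IP20D-3, all below background, against 14.76, 14.88 and 14.97 in IP14D-101, at least 14.2-fold lower. Pdgfra, a growth factor receptor that marks the primitive endoderm and also fibroblasts, stood at 9.86, 7.57 and 7.38 in IP20D-3, against 14.07, 13.98 and 13.82 in IP14D-101, at least 7.56-fold lower. No IP20D-3 array reached an IP14D-101 array for any of them. Amn, the membrane partner of cubilin, fell by 1.06 ± 0.25, the parathyroid hormone receptor Pth1r by 1.00 ± 0.27 and the large receptor Lrp2 by 0.35 ± 0.11.

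Basement membrane genes fell in 6 of 7 cases. Col4a1, a chain of type IV collagen, stood at 13.64, 13.55 and 13.63 in IP20D-3, against 16.48, 16.63 and 16.92 in IP14D-101, and fell by 3.07 ± 0.09 (adjusted p = 2.55e-13). Its partner chain Col4a2 fell by 2.87 ± 0.15. The laminin chains fell less, Lama1 by 1.77 ± 0.16, Lamc1 by 0.79 ± 0.09 and Lamb1 by 0.67 ± 0.10, and Nid1, which links laminin to collagen, by 0.53 ± 0.08. Sparc, a collagen-binding matrix protein, differed by -0.25 and its arrays overlapped.

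Among secreted proteins Srgn, the proteoglycan serglycin, stood at 8.05, 8.48 and 7.98 in IP20D-3, against 15.59, 15.39 and 15.50 in IP14D-101, at least 21.9-fold lower (adjusted p = 1.38e-08). The trypsin inhibitor Spink1 fell by 1.70 ± 0.31. These were the 2 of 11 carriers and plasma proteins that fell. The visceral endoderm products Afp, Ttr, Apoa1 and Apob lay below background in both lines. Dkk1, a Wnt inhibitor, was at least 2.78-fold lower, and the activin inhibitor Fst was at least 3.28-fold higher (adjusted p = 3.88e-06), the one member that rose.

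In the other lines the endoderm genes stood at either level. Gata6 averaged 10.93 in IP14D-1, against 14.91 in CL11, Dab2 averaged 12.89 in IP14D-1, against 15.96 in CL11, and Srgn averaged 9.43 in IP14D-1, against 16.70 in CL11. Between those B6D2F1 lines, which share no array with IP20D-3 or IP14D-101, 21 of the 40 genes fell and 3 rose in IP14D-1. The other 16 did not pass there.

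**Figure D2:**
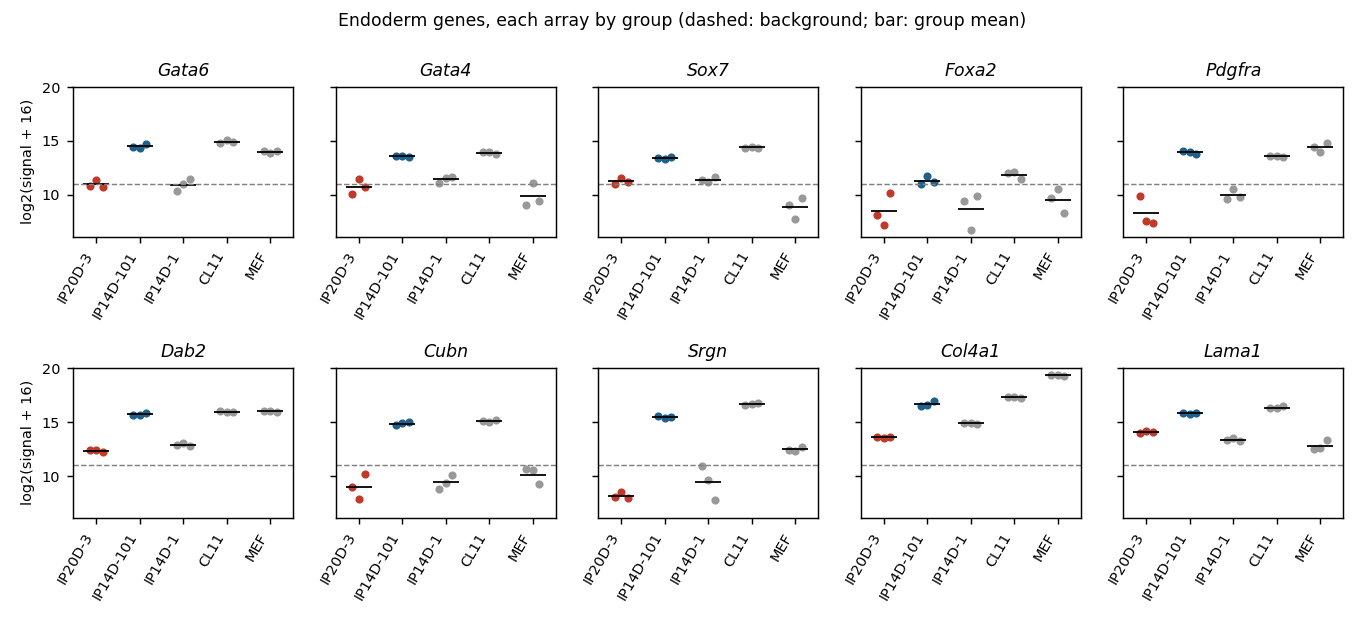
Level, log2(signal + 16), of 10 endoderm genes on each of the 3 arrays of the 5 groups; black bars are group means and the dashed line is background at 11.04. IP20D-3 arrays lie near or below background for Gata6, Gata4, Foxa2, Pdgfra, Cubn and Srgn while IP14D-101 arrays of Gata6, Cubn and Srgn lie at 14.38 or above; for these 3 genes IP14D-1 stands near IP20D-3, and CL11 near or above IP14D-101.

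Genes induced by low oxygen, together with glycolysis, were lower in IP20D-3. Of 36 measured 18 fell, 3 rose and 15 did not pass, with a median of -0.35. Under the median scaling 22 fell and 1 rose. Without any one array between 15 and 18 fell. Of 13 glycolytic enzymes 7 fell and 1 rose, of 4 collagen-modifying hydroxylases 3 fell, and all 3 regulators of mitochondrial entry fell.

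Promoters are shown for P4ha1 (chr10:59323046-59323345, plus strand) and P4ha2 (chr11:54100674-54100973, plus strand), the members with the largest falls, since both hold ACGTG, the core of the hypoxia response element, which binds Hif1a. RefSeq windows on GRCm38.p6 were searched on both strands, and matches stand in capitals.
P4ha1: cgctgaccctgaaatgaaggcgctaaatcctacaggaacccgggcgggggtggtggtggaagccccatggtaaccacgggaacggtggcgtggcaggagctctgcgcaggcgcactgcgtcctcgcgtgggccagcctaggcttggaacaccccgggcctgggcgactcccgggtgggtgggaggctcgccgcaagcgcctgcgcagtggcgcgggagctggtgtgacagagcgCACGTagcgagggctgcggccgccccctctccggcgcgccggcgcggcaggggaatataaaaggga
P4ha2: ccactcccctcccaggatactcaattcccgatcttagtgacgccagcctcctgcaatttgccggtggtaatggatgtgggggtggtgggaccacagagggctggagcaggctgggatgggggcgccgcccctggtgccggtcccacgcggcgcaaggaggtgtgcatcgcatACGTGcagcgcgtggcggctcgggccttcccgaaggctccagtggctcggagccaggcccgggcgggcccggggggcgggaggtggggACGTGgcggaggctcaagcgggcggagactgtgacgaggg
This short core stood in 23 of 32 windows of list members (71.9%) and in 21.8% of all windows. Of the 23 members with it 14 fell and 2 rose, with a median of -0.45, and of the 9 without it 3 fell and 1 rose, with a median of -0.02. The list was chosen as genes of low oxygen and glycolysis, so its share of the core is not independent of that choice. No conclusion is drawn from it. The core overlapped the ER stress element in 7 windows of all genes. In the amino acid response and ER stress list it stood in 16 of 42 windows (38.1%), and of those genes 10 rose and 1 fell. In the sterol and fatty acid list below it stood in 7 of 24 windows (29.2%), and of those genes 0 rose and 5 fell.

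P4ha1, a subunit of the enzyme that hydroxylates proline in collagen, stood at 12.88, 12.98 and 13.44 in IP20D-3, against 14.79, 14.89 and 15.01 in IP14D-101, and fell by 1.80 ± 0.13 (adjusted p = 5.77e-08). P4ha2, its paralogue, stood at 11.98, 12.12 and 12.63 in IP20D-3, against 13.71, 13.96 and 14.13 in IP14D-101, and fell by 1.69 ± 0.16 (adjusted p = 7.79e-07). The lines did not overlap in either gene. The lactate carrier Slc16a3 fell by 1.59 ± 0.19, the oxygen sensors Egln3 and Egln1 by 1.56 ± 0.26 and 1.02 ± 0.13, and Bnip3, which drives mitophagy, by 1.51 ± 0.15. Slc2a1, the main glucose carrier, stood at 17.14, 17.87 and 17.48 in IP20D-3, against 18.76, 18.75 and 18.89 in IP14D-101, and fell by 1.30 ± 0.13 (adjusted p = 1.4e-06). The first IP20D-3 array was the lowest here, as for Hspa5. Vegfa, a blood vessel growth factor and a well known hypoxia target, instead rose by 0.85 ± 0.16 (adjusted p = 0.00109). Another Vegfa probe set above background differed by 0.21 and did not pass (adjusted p = 0.585). Hif1a rose by 0.33 and lost its call under the median scaling, at 0.09 (adjusted p = 0.63). Of the 2 other Hif1a probe sets above background, 1 rose by 1.03 ± 0.15 (adjusted p = 8.2e-05) and 1 did not pass (0.33, adjusted p = 0.0586).

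Sterol and fatty acid synthesis was lower in IP20D-3. Of 31 genes measured 23 fell, 0 rose and 8 did not pass in limma, with a median of -0.68, and between 18 and 22 fell without any one array. Of 17 enzymes of sterol synthesis 14 fell, among them Msmo1 by 1.22 ± 0.09, Fdps by 1.21 ± 0.14, Dhcr7 by 1.19 ± 0.14 and Hmgcs1 by 0.97 ± 0.13, which spread over early and late steps of the pathway. Msmo1, a sterol demethylase, stood at 15.06, 15.50 and 15.39 in IP20D-3, against 16.53, 16.53 and 16.54 in IP14D-101 (adjusted p = 4.31e-08). Scd2, which puts the double bond into fatty acids, stood at 15.75, 16.48 and 16.15 in IP20D-3, against 17.85, 17.98 and 17.94 in IP14D-101, and fell by 1.80 ± 0.13 (adjusted p = 3.54e-08). The IP14D-101 arrays were tight for both and lay above every IP20D-3 array. Its paralogue Scd1 fell by 1.22 ± 0.15 and fatty acid synthase Fasn by 0.66 ± 0.12. Of the regulators, the transcription factor Srebf2, which drives these genes, fell by 0.69 ± 0.11, its escort Scap by 0.60 and its retention factor Insig1 by 0.68 ± 0.15. Promoter windows were also searched for a sterol regulatory element. It stood in 0 of 24 windows of list members, and in 73 of all 27025 (0.27%). A motif this rare is seldom met in so few windows, so nothing is concluded from its absence.

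Respiratory chain genes fell by small amounts. Of 43 measured 22 fell and 2 rose, with a median of -0.25, and under the median scaling 30 fell and 0 rose, with a median of -0.50. Sdhc and Sdhd, subunits of complex II, fell by 0.66 ± 0.09 and 0.61 ± 0.09, and Ndufa4 by 0.61 ± 0.10. Other probe sets above background did not pass for Sdhc (-0.10, adjusted p = 0.771) and Sdhd (-0.31, adjusted p = 0.206). Cell cycle genes were lower in 17 of 43 cases and higher in 5, with a median of -0.13, and of 16 mitotic genes 9 fell and 3 rose, led by the kinase Aurkb, which fell by 1.07 ± 0.10. The thymidylate enzyme Tyms rose by 0.97 ± 0.22, and another of its probe sets did not pass (0.33, adjusted p = 0.586). Genes of the p53 response fell in 7 of 18 cases and 1 rose. Cdkn1a (p21), the cell cycle inhibitor, stood at 14.16, 14.24 and 13.78 in IP20D-3, against 14.99, 15.15 and 15.30 in IP14D-101, and fell by 1.08 ± 0.11 (adjusted p = 3.14e-06). The arrays did not overlap.

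Most of the pluripotency network did not pass the test in the fit to all arrays, MEF included. Of 39 genes measured 6 rose (15.4%) and 7 fell (17.9%), with a median of -0.05, beside 10.3% and 11.7% over all genes. Those shares include 6382 genes with both lines below background, and the list holds 0 of these. Of the 10814 genes with both lines above background 1642 were higher and 2002 lower. Under the median scaling 1 rose and 11 fell, and without the first IP20D-3 array or the first IP14D-101 array 3 rose. The calls also depended on the fit. With the 6 arrays of the lines alone 9 rose and 10 fell, although calls over all genes dropped from 4001 to 2942. Without the variance trend 2 rose and 6 fell. A member that did not pass is therefore not shown to be equal between the lines. Pou5f1 stood at 18.93, 18.82 and 18.84 in IP20D-3, against 18.84, 18.79 and 18.99 in IP14D-101, a difference of -0.01 ± 0.23 (adjusted p = 0.99). Sox2 differed by 0.04 ± 0.12 and Nanog by -0.14 ± 0.13. Nanog passed under the median scaling, at -0.39 (adjusted p = 0.045). The reprogramming factors Klf4 and Myc both fell, by 0.79 ± 0.10 (adjusted p = 2.78e-05) and 0.99 ± 0.18 (adjusted p = 0.00064). Whether these probe sets would also read a reprogramming transgene was not tested.

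The members that did move were of several kinds. Gbx2, a homeobox factor downstream of LIF and STAT3, stood at 13.25, 13.68 and 13.60 in IP20D-3, against 16.30, 16.05 and 16.40 in IP14D-101, and fell by 2.74 ± 0.19 (adjusted p = 2.47e-08). Zfp42 (Rex1), a marker of the naive state, stood at 16.04, 15.95 and 15.95 in IP20D-3, against 18.12, 18.09 and 17.99 in IP14D-101, and fell by 2.08 ± 0.37 (adjusted p = 0.000631). Both genes were tight within each line and did not overlap. The Nodal inhibitor Lefty1 fell by 1.25 ± 0.11, and Fgf4, the growth factor that pushes cells out of the naive state, by 0.53 ± 0.09. Rex2 rose by 1.32 ± 0.25, Dppa3 (Stella) by 1.10 ± 0.27 and the naive factor Klf2 by 0.66 ± 0.10, and under the median scaling Dppa3 (adjusted p = 0.053) and Klf2 (adjusted p = 0.07) missed the threshold. Targets of LIF signalling were split: Bcl3 fell by 1.30 ± 0.14 and Socs3, the feedback inhibitor of the pathway, by 1.26 ± 0.20, while Pim1 rose by 0.59. Of the 15 LIF and STAT3 genes 5 fell and 2 rose.

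Genes of the primed epiblast rose in 5 of 18 cases and fell in 2, with a median of 0.53. Pim2, a kinase encoded on the X chromosome, rose by 1.63 ± 0.10, Sox11 by 1.26 ± 0.18 and Grhl2 by 1.17, and Etv4, a target of FGF signalling, fell by 1.07 ± 0.15. Of the 5 other Sox11 probe sets above background, 4 were higher and 1 did not pass (0.24, adjusted p = 0.243). Other probe sets above background did not pass for Grhl2 (0.49 and 0.37) and Etv4 (0.05, adjusted p = 0.948). Fgf5, the usual marker of that state, stood at 10.56, 12.26 and 11.82 in IP20D-3, against 9.61, 10.38 and 8.25 in IP14D-101, and did not pass (adjusted p = 0.0573). Markers of mesoderm were mostly near background: 15 of 28 lay below it in both lines, 0 rose and 1 fell, Eomes at -1.14 ± 0.39 (adjusted p = 0.0484). That call was lost without any one of 5 of the arrays. It was also lost with a pseudocount of 1, without the variance trend and with the replicate block. Another Eomes probe set did not pass (-0.98, adjusted p = 0.136). Of 22 neural markers 1 was higher and 3 lower, Gbx2 among them, and Sox1 was at least 4.21-fold lower (adjusted p = 0.00147).

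All measured genes of the Dlk1-Dio3 cluster on chromosome 12 were lower in IP20D-3. Meg3, the maternal long noncoding RNA, stood at 13.44, 13.31 and 13.36 in IP20D-3, against 16.43, 16.56 and 15.85 in IP14D-101, and fell by 2.92 ± 0.12 (adjusted p = 3.61e-11). Rian, the next noncoding RNA, stood at 9.11, 9.89 and 10.70 in IP20D-3, below background, against 13.94, 13.76 and 13.32 in IP14D-101, at least 6.21-fold lower (adjusted p = 3.09e-08). The IP20D-3 arrays lay far below IP14D-101 for both. Mirg, which holds many microRNAs, stood at 11.67, 11.38 and 11.51 in IP20D-3, against 14.02, 13.96 and 13.42 in IP14D-101, and fell by 2.28 ± 0.16 (adjusted p = 3.09e-08). Dlk1, the paternal protein gene, fell by 1.29 ± 0.20 (adjusted p = 0.000169), while its other probe set, below background in both lines, did not pass at 0.54 (adjusted p = 0.705). Of 11 Meg3 probe sets 6 were lower and 0 higher.

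Meg3, Rian and Mirg were lower in IP20D-3 than in each of the other ES and iPS lines (lower genes over all: 3.53% against IP14D-1 and 10.1% against CL11), while Dlk1 differed by -0.22 against CL11 without passing. On average Meg3 stood at 17.29 in IP14D-1, 16.39 in CL11 and 18.31 in MEF. Against IP14D-1 Meg3 was lower in IP20D-3 by 3.93 on the log2 scale and against CL11 by 3.02 (adjusted p = 7e-13 and 2.2e-11 in limma). Both comparisons share the IP20D-3 arrays with the one above.

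Other imprinted genes differed in both directions, 11 higher and 7 lower of 40, with 22 not passing, and under the median scaling 7 were higher and 8 lower. Grb10, an adaptor that restrains insulin signalling, stood at 17.25, 17.02 and 17.10 in IP20D-3, against 14.58, 14.83 and 14.79 in IP14D-101, and rose by 2.39 ± 0.08 (adjusted p = 1.71e-12). Peg3, a zinc finger factor expressed from the paternal allele, stood at 17.41, 17.49 and 17.64 in IP20D-3, against 15.70, 15.67 and 15.19 in IP14D-101, and rose by 1.99 ± 0.12 (adjusted p = 3.7e-09). Its neighbour Usp29 stood at 11.55, 11.52 and 11.30 in IP20D-3, against 7.97, 8.02 and 7.81 in IP14D-101, at least 1.33-fold higher (adjusted p = 0.000208). None of the 3 genes overlapped between the lines. Impact rose by 1.20 ± 0.08 and Mkrn3 by 1.13 ± 0.20, both expressed from the paternal allele. Of the genes that fell, the cell cycle inhibitor Cdkn1c fell by 1.35 ± 0.19, Nnat by 0.97 ± 0.14 and Mest by 0.94 ± 0.09. By parent of origin, 5 of 20 maternally expressed genes rose and 2 fell, and 6 of 20 paternally expressed genes rose and 5 fell.

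Peg3, Usp29 and Grb10 were low in IP14D-101 beside the other cells. Peg3 averaged 17.59 in IP14D-1, 17.22 in CL11 and 16.97 in MEF, and IP14D-101 was lower than IP14D-1 by 2.07 and than CL11 by 1.70 in Peg3 and by 2.33 and 1.76 in Grb10, where 12.5% of all genes were lower against IP14D-1 and 4.56% against CL11. These values set a C57x129S2 line against B6D2F1 lines, and line and background cannot be told apart.

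**Figure D3:**
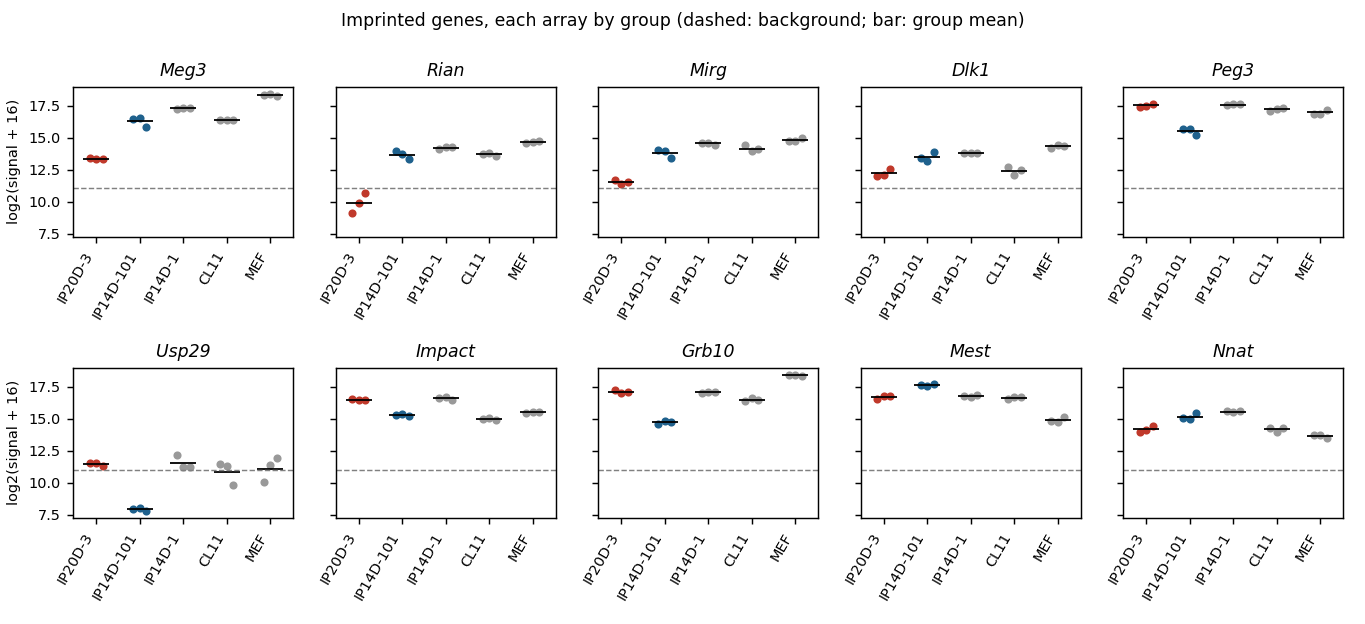
Level, log2(signal + 16), of 10 imprinted genes on each of the 3 arrays of the 5 groups; black bars are group means and the dashed line is background at 11.04. Meg3, Rian and Mirg are lowest in IP20D-3, and Peg3, Usp29 and Grb10 are lowest in IP14D-101.

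Genes of the X chromosome were shifted upward in IP20D-3. Over the 390 X-linked genes with a line above background, the median difference was 0.20, and it lay between 0.12 and 0.30 over the 9 pairs of arrays. The median over 11370 autosomal genes was -0.03, and the medians of single autosomes lay between -0.10 and 0.06. Of the X-linked genes 97 were higher (24.9%) and 38 lower (9.74%), against 14.7% and 18.0% of autosomal genes. The gap between the X and autosome medians was 0.23, and it lay between 0.19 and 0.24 under the other scalings and between 0.17 and 0.26 without any one array.

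Xist, the RNA of the inactive X chromosome, stood at 13.67, 13.62 and 13.45 in IP20D-3, against 13.60, 13.45 and 12.62 in IP14D-101, overlapped and did not pass (0.35 ± 0.19, adjusted p = 0.242), and it averaged 16.92 in MEF. Eif2s3y, a translation factor gene of the Y chromosome, stood at 15.74, 15.63 and 15.69 in IP20D-3, against 14.37, 14.38 and 13.82 in IP14D-101, and rose by 1.5 ± 0.41 (adjusted p = 0.0148). It was above background in both lines, and the Eif2s3y call was lost without the first IP20D-3 array (adjusted p = 0.051) or the third IP14D-101 array (adjusted p = 0.063). Uty, also Y-linked, stood at 13.63, 13.78 and 13.65 in IP20D-3, against 12.36, 12.93 and 11.74 in IP14D-101, and did not pass (adjusted p = 0.122). Of its 3 other probe sets above background, 2 were higher, by 2.68 ± 0.54 (adjusted p = 0.00176) and 4.49 ± 0.70 (adjusted p = 0.00018), and 1 did not pass, so the Uty result depends on the probe set. Of the X-linked homeobox genes, the 3 Rhox genes on the lists rose, Rhox6 by 2.28 ± 0.53, Rhox9 by 1.86 ± 0.20 and Rhox5 by 1.26 ± 0.14. Rhox9 stood at 14.19, 14.02 and 14.49 in IP20D-3, against 12.23, 12.28 and 12.61 in IP14D-101, with no overlap (adjusted p = 4.5e-06).

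The same measure in the remaining pairs gave an X median of -0.07 for IP20D-3 minus IP14D-1, 0.13 for IP20D-3 minus CL11, -0.25 for IP14D-101 minus IP14D-1 and -0.01 for IP14D-101 minus CL11. IP20D-3 thus stood nearer to IP14D-1, and IP14D-101 nearer to CL11.

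**Figure D4:**
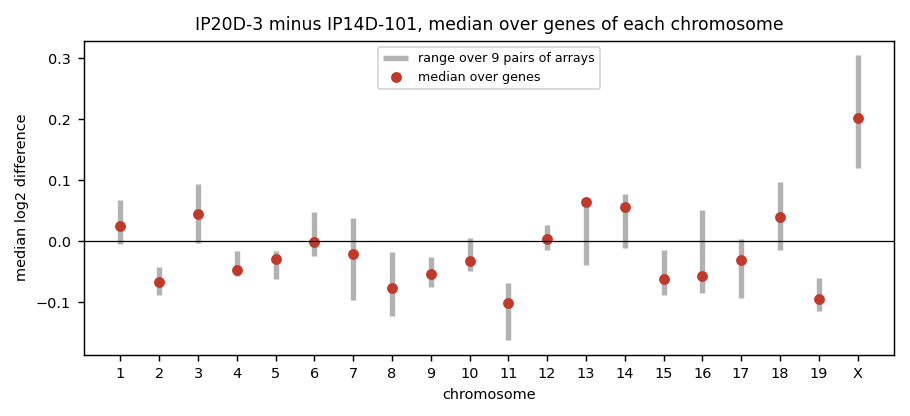
Median log2 difference, IP20D-3 minus IP14D-101, over the genes of each chromosome with a line above background; grey bars give the range over the 9 pairs of arrays. The X chromosome stands at 0.20 and the autosomes lie between -0.10 and 0.06.

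Genes of defence against metals and oxidants moved in both directions. Of 17 measured 8 rose and 4 fell, with a median of 0.23, and under the median scaling 3 rose and 5 fell. The metallothionein Mt1 stood at 19.51, 19.33 and 19.41 in IP20D-3, against 17.99, 17.79 and 18.15 in IP14D-101, and rose by 1.44 ± 0.08 (adjusted p = 1.7e-09), and Mt2 rose by 1.17 ± 0.06. Metallothioneins bind zinc and copper. Srxn1, which repairs oxidised peroxiredoxin, stood at 13.90, 14.32 and 13.77 in IP20D-3, against 15.45, 15.36 and 15.54 in IP14D-101, and fell by 1.45 ± 0.13 (adjusted p = 6.37e-07), and Gclm, for glutathione synthesis, fell by 0.91 ± 0.09. The lines were separate for all 4 genes. Of the 3 other Srxn1 probe sets above background, 2 were lower (-1.49 and -1.32). The last, with IP14D-101 below background, lay on the opposite side of 0 and did not pass (1.27, adjusted p = 0.16). Another Gclm probe set above background also lay on the opposite side of 0 and did not pass (0.58, adjusted p = 0.099).

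Of 26 epithelial genes 8 were higher and 2 lower, with a median of 0.46. The desmosome gene Dsp rose by 1.65 ± 0.23, with 2 other probe sets above background that did not pass (0.71 and 0.67), and the keratin gene Krt18 by 0.85 ± 0.10, while Cdh1 (E-cadherin) differed by 0.30 without passing. Of 27 immediate early genes 9 were higher and 5 lower, with Id2 up by 1.33 ± 0.12, Klf6 by 1.14 ± 0.15 and Jun by 0.87 ± 0.23, while Ier3 fell by 1.47 ± 0.14. Of the 3 other Klf6 probe sets above background, 2 were higher (1.23 and 0.69) and 1 did not pass (0.36, adjusted p = 0.0718). Of 18 actin cytoskeleton genes 6 were higher and 3 lower, and under the median scaling 2 rose and 6 fell. Tagln rose by 0.92 ± 0.11 and Cnn1 was at least 2.73-fold higher, while Acta2 fell by 0.55 ± 0.12, with its other probe sets below background in both lines. Fibroblast markers gave 4 higher (12.5%) and 3 lower (9.38%) of 32, near the 10.3% and 11.7% over all genes. Without the second IP14D-101 array 7 were higher. Of the 32 markers 19 lay below background in both lines, 3 of the called ones among them.

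Of 23 trophoblast genes 6 were higher and 2 lower, among them the Rhox genes named above, Krt18 and Krt8. Of 25 germ line genes 4 were higher (16%) and 2 lower (8%), beside 10.3% and 11.7% over all genes. Stra8, which prepares germ cells for meiosis, stood at 12.88, 12.62 and 12.44 in IP20D-3, against 15.62, 15.57 and 15.46 in IP14D-101, and fell by 2.90 ± 0.24 (adjusted p = 2.39e-07), while Sycp3, a protein of the meiotic chromosome axis, rose by 1.84 ± 0.32 (adjusted p = 0.000477). Stra8 averaged 12.98 in IP14D-1 and 13.36 in CL11, so that IP14D-101 stood above the other lines. Of 25 genes of DNA methylation and Polycomb 5 were higher (20%) and 6 lower (24%). Of autosomal genes with a line above background 14.7% were higher and 18.0% lower. Suz12, a core subunit of Polycomb repressive complex, rose by 0.68 ± 0.12, and the methyltransferase Dnmt3a stood at -0.73 ± 0.21. The Dnmt3a call was lost without the first IP20D-3 array (adjusted p = 0.081) or the third IP14D-101 array (adjusted p = 0.079). Of the 4 other Dnmt3a probe sets above background, 3 were lower (-1.04, -0.83 and -0.82) and 1 did not pass (-0.27, adjusted p = 0.619). Of 30 interferon genes 3 were higher (10%) and 3 lower (10%), near the shares over all genes, with Oas1a up by 1.53 ± 0.24. Of 24 ribosomal protein genes 4 were higher and 0 lower, by at most 0.50 (Rps6), and under the median scaling 0 rose and 0 fell. HOX genes gave 1 higher and 1 lower of 27, both below background in both lines, 2-cell-like genes 1 higher of 9 and macrophage and blood genes 1 higher of 18. Under the median scaling LIF and STAT3 genes gave 1 higher and 7 lower, primed epiblast 3 and 3, trophoblast 4 and 4, immediate early 6 and 6, epithelial 6 and 3, DNA methylation and Polycomb 2 and 7, interferon 3 and 6, fibroblast 3 and 5, HOX 1 and 4, cell cycle 3 and 22 and p53 genes 0 and 10, neural markers 0 and 3, and 2-cell-like and macrophage and blood genes 0 and 0.

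Several of the smaller list counts rested on single arrays. Without the first IP20D-3 array, 2 germ line genes were higher, 3 cell cycle genes higher, 3 immediate early genes lower and 1 ribosomal protein gene higher. Ribosomal protein genes called higher numbered 2 without the second IP20D-3 array or the first IP14D-101 array, and cell cycle genes called higher numbered 3 without the third IP20D-3 array. Respiratory chain genes called higher numbered at most 1 without any one array. Counts of 2 or fewer called genes in the LIF, primed epiblast, mesoderm, neural, trophoblast, p53, epithelial, HOX, 2-cell-like, macrophage, sex-linked and strain-variable lists also moved by over 1.5 times without one array or another.

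**Figure D5:**
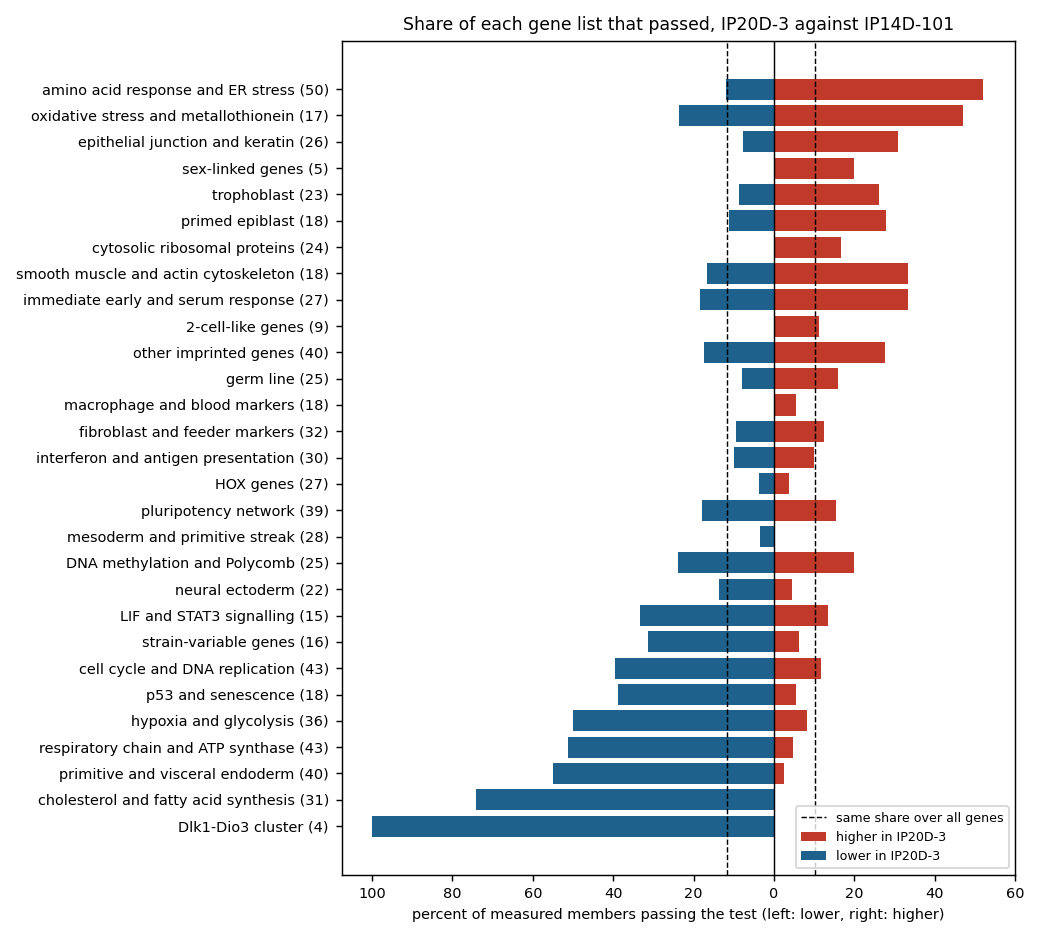
Percent of the measured members of each of the 29 gene lists that were lower (blue, left) or higher (red, right) in IP20D-3 than in IP14D-101 at an adjusted p under 0.05; member counts stand in parentheses and dashed lines mark the same percent over all genes (11.7 lower, 10.3 higher). All 4 Dlk1-Dio3 genes, 74.2% of sterol and fatty acid genes and 55% of endoderm genes were lower. Of amino acid response and ER stress genes 52% were higher.

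Single genes outside these groups differed by as much. Mid1, an X-linked ubiquitin ligase on microtubules, stood at 15.93, 15.86 and 15.86 in IP20D-3, against 11.14, 11.94 and 11.03 in IP14D-101, and rose by 4.51 ± 0.18 (22.8-fold, adjusted p = 1.59e-11). Its other 2 probe sets lay below background in both lines. Mid1 averaged 15.85 in IP14D-1 and 12.26 in CL11. The gene spans the boundary of the pseudoautosomal region in C57BL/6 mice, which is background knowledge and was not tested here. Cap1, an adaptor that recycles actin, stood at 11.66, 11.54 and 10.54 in IP20D-3, against 15.49, 15.53 and 15.71 in IP14D-101, and fell by 4.33 ± 0.19 (20.1-fold, adjusted p = 5.25e-11). Both Cap1 probe sets were lower, by -3.96 and -4.33, and Cap1 averaged 15.83 in IP14D-1, 15.55 in CL11 and 16.82 in MEF. Among the 5 groups it was low in IP20D-3.

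Several more genes shared that pattern of a single low line. Tmem87a, a membrane protein of the Golgi, stood at 7.45, 10.49 and 10.73 in IP20D-3, against 13.54, 13.82 and 13.65 in IP14D-101, at least 6.19-fold lower (adjusted p = 2.54e-05), and averaged 13.81 in IP14D-1 and 13.54 in CL11. Ccnb1ip1, a ligase of meiotic crossing over, stood at 11.21, 11.70 and 11.50 in IP20D-3, against 14.89, 14.77 and 14.75 in IP14D-101, and fell by 3.34 ± 0.25, with averages of 14.54 in IP14D-1 and 14.94 in CL11. The arrays of the lines did not overlap in either gene. Cd99, a cell surface glycoprotein, was low in IP14D-101 instead: it stood at 15.17, 15.02 and 15.27 in IP20D-3, against 10.73, 11.56 and 10.70 in IP14D-101, at least 15.4-fold higher (adjusted p = 2.41e-11). All 3 Cd99 probe sets were higher, and Cd99 averaged 14.83 in IP14D-1, 14.21 in CL11 and 15.97 in MEF. Apoc2, an apolipoprotein, was at least 6.06-fold higher and Ankrd31, a meiotic protein, at least 5.05-fold higher, with IP14D-101 again below background and IP14D-1 and CL11 above it.

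Of the rest, S100a13, a calcium-binding protein, rose by 3.33 ± 0.23, the zinc finger gene Zfp995 by 2.72 ± 0.58 and the RNA-binding protein Taf15 by 2.66 ± 0.23. Another Taf15 probe set above background did not pass (0.48, adjusted p = 0.442). Zfp995 stood at 13.98, 14.52 and 14.00 in IP20D-3, against 12.81, 12.41 and 9.11 in IP14D-101, so that 1 array of IP14D-101 stood far below its group. Usp26, an X-linked ubiquitin protease, was at least 4.29-fold higher, the neurofilament Nefm at least 4.46-fold and the transcriptional cofactor Lcorl at least 4.25-fold. Usp26 averaged 9.91 in IP14D-1, 10.15 in CL11 and 8.99 in MEF, all below background. Of the 3 other Lcorl probe sets above background, 2 were higher (1.34 and 1.85) and 1 did not pass (0.66, adjusted p = 0.0973). For probe sets on sequence that differs between strains, hybridisation and expression cannot be told apart. Of 16 genes reported to vary between laboratory strains 5 fell and 1 rose. Glo1 fell by 0.80 ± 0.08, Alad by 0.67 ± 0.15 and Nnt, a mitochondrial transhydrogenase that is defective in some C57BL/6 substrains, by 0.57 ± 0.10, with Nnt at 15.28, 15.04 and 14.93 in IP20D-3 and 15.53, 15.75 and 15.68 in IP14D-101. Another Nnt probe set above background did not pass (-0.20, adjusted p = 0.379). Of the 3 other Glo1 probe sets above background, 2 were lower (-0.71 and -1.14) and 1 did not pass (-0.03, adjusted p = 0.953).

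The lines were also set beside IP14D-1 minus CL11, the pair of lines in the study that shares no array with them and where both are B6D2F1. There 4048 genes differed (22.3%), 1947 higher in IP14D-1 (10.7% of all genes) and 2101 lower (11.5%). Of the 1865 genes higher in IP20D-3 than in IP14D-101, 884 were also higher in IP14D-1 than in CL11, 47.4% of the first list and 45.4% of the second. Of the 2136 lower genes 1061 were lower in both, 49.7% of the first list and 50.5% of the second. Called with opposite signs were 75 of the higher and 74 of the lower genes. The fits share one estimate of the spread. Side by side, the amino acid response and ER stress list gave 26 higher and 6 lower of 50 in each of the comparisons. The endoderm list gave 22 lower for IP20D-3 and 21 for IP14D-1, and hypoxia and glycolysis 18 and 25 lower of 36. Sterol and fatty acid synthesis gave 23 lower for IP20D-3 and 15 for IP14D-1. The Dlk1-Dio3 cluster had 4 of 4 lower in IP20D-3 against IP14D-101, and 0 lower with 2 higher in IP14D-1 against CL11.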

How the data were processed

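RNA of 5 groups of mouse cells, 3 arrays each, was measured on Affymetrix arrays. The deposited intensity values are linear; per the submitters' processing notes the authors used MAS5 and the Affymetrix Expression Console, with versions not given. The scaling target of the deposited table is not given in the sources used here. No value was missing or below 0. MAS5 subtracts mismatch signal, which leaves dim probe sets noisy.

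The 64 control probe sets were left out. Each of the 15 arrays was scaled to one 2% trimmed mean, 16 was added and log2 taken. limma 3.58.1 in R 4.3.3 fitted one mean per group to all 15 arrays, with a variance trend, and p-values were adjusted by Benjamini-Hochberg over 45037 probe sets; adjusted p under 0.05 counted as a difference. This limma fit is the source of every adjusted p in the text, and it was tested on simulated data. Each gene was read from the brightest, on average, of the probe sets naming it alone, which gave 18193 genes; 34945 probe sets named 1 gene, 932 several and 9160 none. Names came from the platform annotation; 34741 of the probe sets matched a RefSeq gene, and no symbol changed.

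Named genes are the 8 highest and 8 lowest differences with both lines above background and the 6 highest and 6 lowest bounded folds with one line below it, among called genes without overlap and with predicted genes passed over, up to 6 called members a direction in each list, and a fixed set of markers. Genes of a list named beside these were chosen after their values were seen. The comparison, lists and rules were chosen with earlier results of these data known. A group mean below background gives a bound with its arrays raised to background. Lists were counted and not tested as sets, and genes of a list without a probe set of their own were not analysed here. Promoter windows came from RefSeq on GRCm38.p6.

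Arrays with the same replicate number did not deviate together (correlations of deviations -0.00020, -0.0054 and -0.0077), so the numbers were not used as pairs. Alternatives tried were quantile normalization, scaling to one median, no scaling, pseudocounts of 1, 64 and 1000, a filter on probe sets, the 6 arrays alone, no variance trend, a replicate block, adjustment over genes only, another probe set per gene and each array left out. The number of arrays limits the precision.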

Additional observations from a re-analysis of the deposited data

How the results depend on the processing

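The 4001 genes called became 2894 without the variance trend and up to 4519 under scaling to one median, and between 3017 and 3905 with any one array left out. Of the genes called under both settings, 0 changed sign in any alternative except 2 under another probe set per gene. Counts by direction were less stable: genes called higher numbered 1865, but 860 under scaling to one median and 1051 with no scaling, and genes called lower numbered 2136, but 3659 under scaling to one median. Left-out arrays gave 1397 to 1863 genes called higher and 1620 to 2042 genes called lower, and the call on probe sets ran between 5992 and 8450. With the replicate block, 3908 genes were called, and no count over all genes moved by over 1.5 times; in the lists, trophoblast genes called lower numbered 1, respiratory chain genes called higher 1, macrophage and blood genes called higher 2 and mesoderm genes called lower 0, Eomes being lost (adjusted p = 0.064). Of 203 named genes that passed, 164 kept their call with any one array left out and 162 under the 3 other scalings. Values of opposite sign were given for Acta2 (1.93) and Dlk1 (0.54) by another probe set, which lies below background in both lines, so that no change of direction can be read from it, and, under scaling to one median, Cox4i1 (-0.016), Ndufs4 (-0.042), Rpl10a (-0.0013) and Rpl13a (-0.028). That scaling shifts all genes together. Where probe sets of a gene differ, the cause was not tested. MAS5 signals near background limit the 144 genes called with both lines below it, for which no fold is given.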
